A study of Curvularia clavata with 15 samples.

Results

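Deletion mutants of the filamentous fungus Curvularia clavata, strain J1, were compared directly with each other, namely ΔCclaeA, which lacks CclaeA, and Δrpn-4, which lacks rpn-4. The comparison used the 6 mutant libraries labelled with these genotypes, 3 of each, of the 15 RNA-seq libraries of the series. Both mutants were grown as mycelia in 100 mL of Vogel's minimal medium with 2% lignosulfonate and 0.25% glucose, at 30 °C and 200 rpm for 4 days. The other 9 libraries, also 3 per group and 4 days old, were Δtah-1 and wild type (WT) on the same lignosulfonate medium and WT on 2% glucose. They are used below to place the difference between the mutants. The labels give 1 strain background and do not say how many transformants stand behind a genotype, or whether the 3 samples of a group were separate cultures, so the p-values reflect how far these samples differ from each other, and part of that may be technical. The study set out to find regulators of lignin use and laccase activity in this fungus.

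LaeA proteins are putative methyltransferases of filamentous fungi that act with velvet proteins in the nucleus, and they are known as global regulators of secondary metabolite gene clusters and of development. Rpn4 is known from the budding yeast Saccharomyces cerevisiae as a short-lived transcription factor that raises the expression of proteasome subunit genes and is itself degraded by the proteasome. Lignosulfonate is a water-soluble sulfonated lignin, and laccases are secreted copper oxidases that act on phenolic compounds such as those in lignin. The sources used here pair no ID with a gene name. Genes are therefore given by ID, and no pathway or family is named from them. The deleted genes were not identified among the IDs, and the genotype labels were therefore not checked against the values.

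Every library listed an FPKM value, a fragment count normalised to transcript length and to the library's mapped fragments, for the same 10170 IDs, of which 9265 had at least 1 FPKM in at least 3 of the 15 libraries and were tested. Replicates lay close together. The median absolute log2 difference between 2 libraries of the same mutant was 0.11 to 0.12 in ΔCclaeA and 0.10 to 0.15 in Δrpn-4. Between a ΔCclaeA and a Δrpn-4 library it was 0.78 to 0.84. These differences are of log2(FPKM + 1) as deposited. Those between the mutants therefore include a shift of most IDs, with a median of 0.67, that the scaling described below removed. The number of reads is unknown from FPKM. Steps between the lowest values gave relative depths of 1.02 to 1.05 in ΔCclaeA and 0.94 to 0.99 in Δrpn-4, and all 15 pairs of these libraries fitted within 0.05 on the log2 scale. The column headers of both mutants' files name no unit, in contrast to those of WT, so the direct comparison sets files of the same kind against each other. All comparisons of a mutant with WT below, also of Δtah-1, set files with unlike headers against each other.

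A few IDs took up far more of the Δrpn-4 libraries than of the ΔCclaeA libraries. The 10 most abundant IDs of each library held 11.1%, 11.7% and 12.1% of the FPKM sum in ΔCclaeA, against 25.3%, 26.2% and 26.1% in Δrpn-4. The 100 most abundant held 26.5%, 27.1% and 27.8% in ΔCclaeA, against 50.9%, 51.2% and 51.1% in Δrpn-4. The 2 groups did not overlap in either measure, and ΔCclaeA lay near WT on lignosulfonate, where the 10 most abundant held 11.9% ± 0.152 (SD, n = 3). The bulk of the IDs was lower in Δrpn-4 on the FPKM scale, and how far the abundant IDs account for this was not tested. The FPKM sum itself was larger in Δrpn-4, at 1.02e+06 on average against 835087 in ΔCclaeA. The median FPKM over all IDs was 30.0, 30.6 and 30.6 in the ΔCclaeA libraries and 17.4, 17.6 and 17.4 in the Δrpn-4 libraries. An exact two-sided permutation test over the 3 and 3 libraries gave p = 0.1 for each of these measures, the smallest p that this design allows. Because FPKM sets each ID against everything else in its library, results are given both as deposited and with median-of-ratios scaling, which divides each library by the median ratio of its IDs to their geometric means over all libraries. In such bulk RNA, fewer cells expressing a gene and less of its RNA per cell cannot be told apart. The size factors were 1.13 to 1.17 in ΔCclaeA and 0.68 to 0.69 in Δrpn-4, and after scaling the medians were 26.6, 26.6 and 26.3 in ΔCclaeA and 25.6, 25.5 and 25.7 in Δrpn-4.

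**Figure D1:**
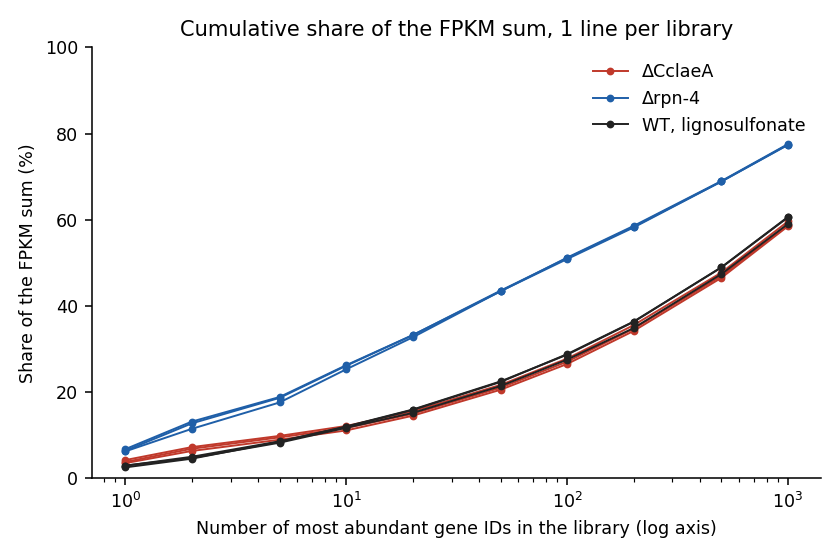
Share of the FPKM sum (percent, y axis) held by the most abundant IDs of a library (number of IDs, log x axis), 1 line for each library of ΔCclaeA, Δrpn-4 and WT on lignosulfonate. The 3 Δrpn-4 lines pass 50.9% to 51.2% at 100 IDs, while the ΔCclaeA lines lie at 26.5% to 27.8% and run with those of WT.

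The mutants differed in a large share of the tested IDs under either scaling, but which mutant had more higher IDs depended on the scaling. As deposited, 3506 IDs (37.8% of those tested) were called, that is, they differed at least 2-fold with a limma adjusted p below 0.05. Of these, 2915 (31.5% of the tested IDs) were higher and 591 (6.38%) lower in ΔCclaeA than in Δrpn-4. After scaling, 2048 IDs (22.1%) were called, 706 (7.62%) higher and 1342 (14.5%) lower in ΔCclaeA. Over all tested IDs the log2 fold change, ΔCclaeA over Δrpn-4, had a median of 0.67 as deposited, a ratio of 1.59, and of -0.0048 after scaling. All 706 higher IDs found after scaling were also called higher as deposited, and all 591 lower IDs as deposited were also called lower after scaling. These 706 and 591 IDs, called in the same direction both ways, are the basis of the descriptions that follow. Scaling moves nearly all IDs the same way by a like amount, so this nesting follows from how it is built and is no sign of stability. The other 2209 IDs called higher as deposited and 751 called lower after scaling rest on the choice of scaling.

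**Figure D2:**
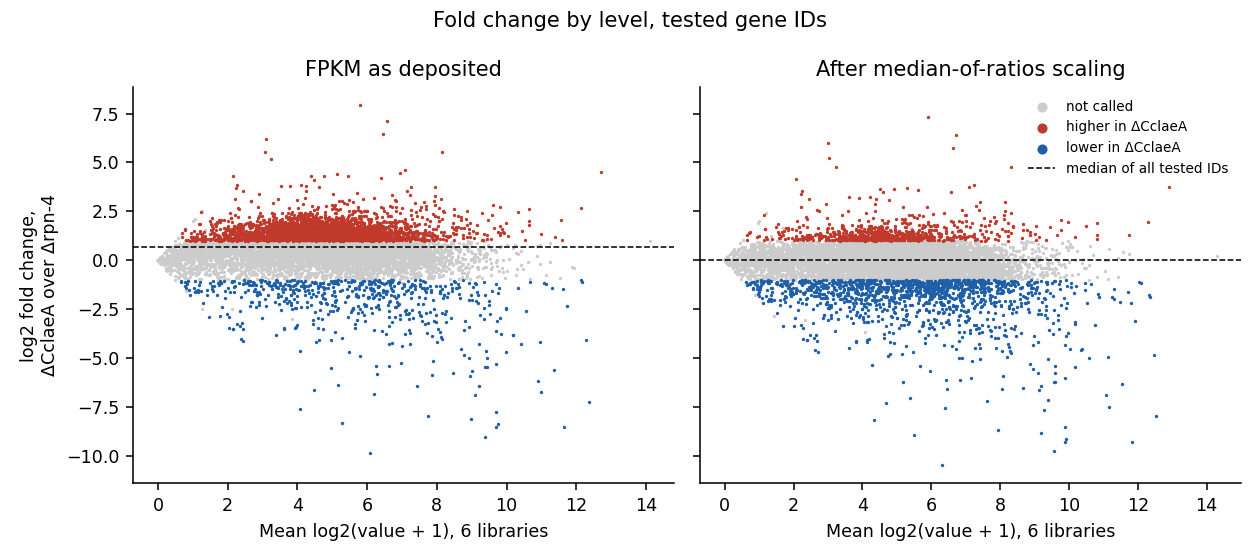
Log2 fold change of ΔCclaeA over Δrpn-4 (y axis) against the mean log2(value + 1) of the 6 libraries (x axis) for 9265 tested IDs, on the left as deposited, on the right with median-of-ratios scaling. The dashed line is the median of all tested IDs, at 0.67 on the left and near 0 on the right, and the points far below it at high levels remain in both panels.

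The large differences ran mostly toward Δrpn-4. At a threshold of 4-fold, 310 IDs were higher and 228 lower in ΔCclaeA as deposited, and 70 higher and 430 lower after scaling. At 8-fold the lower IDs outnumbered the higher ones both ways, with 50 higher and 109 lower as deposited and 25 higher and 193 lower after scaling. At 64-fold, 4 IDs were higher and 19 lower in ΔCclaeA as deposited, and 2 higher and 32 lower after scaling. No ID was called at least 256-fold higher in ΔCclaeA, and 7 were called at least 256-fold lower under both scalings. Fold changes are on the log2(FPKM + 1) scale, which understates those of IDs with low values.

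**Figure D3:**
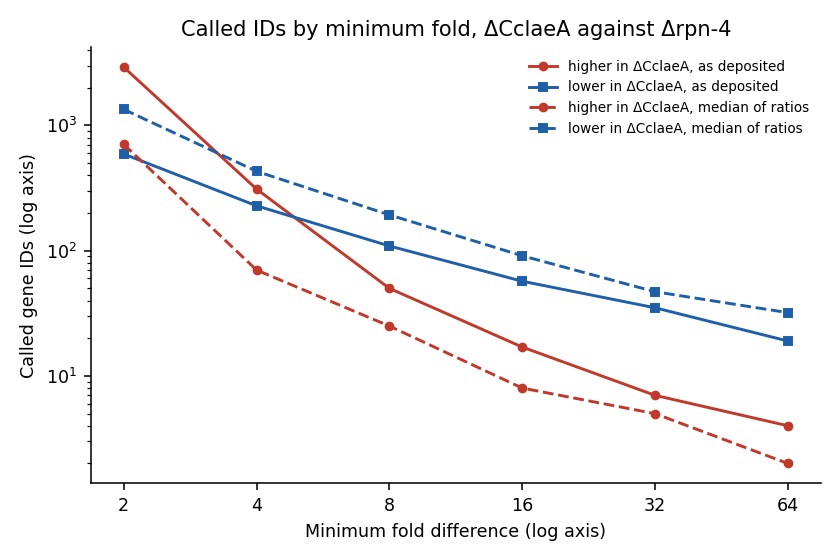
Number of called IDs (log y axis) at increasing minimum fold differences (log x axis), for IDs higher and lower in ΔCclaeA than in Δrpn-4, with deposited values drawn solid and median-of-ratios values dashed. The lines of higher and lower IDs cross between 4-fold and 8-fold as deposited, and after scaling the lower IDs lie above at every fold.

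The share of IDs called lower in ΔCclaeA was largest in the highest level class, although most of these IDs lay in the other classes. The tested IDs were divided into 5 level classes of 1853 by their mean log2(FPKM + 1) over all 15 libraries. This mean includes both mutants, so a high value in 1 of them by itself raises the level of an ID. In the highest class 362 IDs (19.5%) were higher and 211 (11.4%) lower in ΔCclaeA as deposited, and after scaling 81 (4.37%) were higher and 444 (24.0%) lower. In the class above the lowest, 744 (40.2%) were higher and 94 (5.07%) lower as deposited, and after scaling 231 (12.5%) were higher and 210 (11.3%) lower. Among the top 1% by level, 93 IDs, 11 were higher and 31 lower as deposited, and 3 higher and 50 lower after scaling. In the highest class the log2 fold change had a median of 0.38 as deposited and -0.37 after scaling, so the sign of this median depended on the scaling.

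The 591 IDs lower in ΔCclaeA made up much of the Δrpn-4 transcriptome by FPKM. They held 6.16% ± 0.111 of the FPKM sum in ΔCclaeA and 53.0% ± 0.069 in Δrpn-4 (SD, n = 3 each). The other groups entered the choice of these IDs only through the filter, the scaling and the spread pooled over all 15 libraries. There the 591 IDs held 14.1% ± 0.149 in Δtah-1, 19.97% ± 1.43 in WT on lignosulfonate and 13.9% ± 0.295 in WT on glucose. Their group means had a median of 22.9 FPKM in ΔCclaeA and 102 in Δrpn-4, with 68.8 in WT on lignosulfonate. The 706 IDs higher in ΔCclaeA were of more moderate level, with a median of 44.8 FPKM in ΔCclaeA and 9.50 in Δrpn-4, and 28.9 in WT on lignosulfonate. They held 17.7% ± 0.240 of the FPKM sum in ΔCclaeA and 2.33% ± 0.015 in Δrpn-4, with 6.78% ± 0.547 in WT on lignosulfonate. Both sets were chosen by the difference between the mutants, so the mutants' own shares describe the sets and test nothing.

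The strongest rises in ΔCclaeA over Δrpn-4 were at 2 IDs with consecutive numbers. yc1106_05659 had 824, 880 and 873 FPKM in ΔCclaeA and 2.40, 2.65 and 2.57 FPKM in Δrpn-4. It thus ranked between 92 and 95 of all IDs in the ΔCclaeA libraries and between 8141 and 8253 in the Δrpn-4 libraries, a position within the library that does not depend on scaling. The log2 fold change was 7.92 (SE 0.25, limma adjusted p = 2.4e-12) as deposited and 7.31 after scaling. Its neighbour yc1106_05658 had 1021, 1199 and 1103 FPKM in ΔCclaeA and 7.69, 6.16 and 7.45 FPKM in Δrpn-4, which is 7.10 on the log2 scale (SE 0.25, limma adjusted p = 1.01e-11) as deposited and 6.40 after scaling. At both IDs ΔCclaeA stood above all 12 other libraries. yc1106_05659 averaged 7.76 ± 4.35 FPKM in Δtah-1, 4.40 ± 0.869 in WT on lignosulfonate and 5.78 ± 0.893 in WT on glucose (SD, n = 3 each). yc1106_05658 averaged 18.0 ± 7.37 FPKM in Δtah-1 and 14.1 ± 3.42 in WT on lignosulfonate, and 0.573 ± 0.395 in WT on glucose. Against WT on lignosulfonate the log2 fold change of yc1106_05658 was 6.22 for ΔCclaeA and -0.88 for Δrpn-4 as deposited, and 6.31 and -0.10 after scaling. These contrasts share the WT libraries.

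The strongest falls were of another kind, with Δrpn-4 above WT and ΔCclaeA below it. yc1106_04083 had 37.1, 19.0 and 31.5 FPKM in ΔCclaeA and 15050, 15639 and 15139 FPKM in Δrpn-4. It was the 8th or 9th most abundant ID in the Δrpn-4 libraries and ranked between 4501 and 6186 in the ΔCclaeA libraries. The log2 fold change was -9.03 (SE 0.24, limma adjusted p = 8.48e-13) as deposited and -9.78 after scaling. WT on lignosulfonate lay between the mutants at 2844, 3923 and 3388 FPKM, and Δtah-1 had 99.6, 168 and 96.8 FPKM. yc1106_07980 was listed at 0, 0 and 9.60 FPKM in ΔCclaeA, against 2025, 2297 and 1886 FPKM in Δrpn-4. WT on lignosulfonate had 119, 389 and 191 FPKM, again between the mutants, and WT on glucose had 438, 410 and 286 FPKM. The same uneven listing was seen in Δtah-1, at 0, 0 and 22.7 FPKM. Its difference of -9.88 on the log2 scale (SE 1.18, limma adjusted p = 1.51e-05) depends on the pseudocount and on single libraries: it was -12.13 with a pseudocount of 0.1, and -11.01 to -9.31 when 1 library of either mutant was left out. The 3 ΔCclaeA libraries lay far below the 3 Δrpn-4 libraries in each case.

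**Figure D4:**
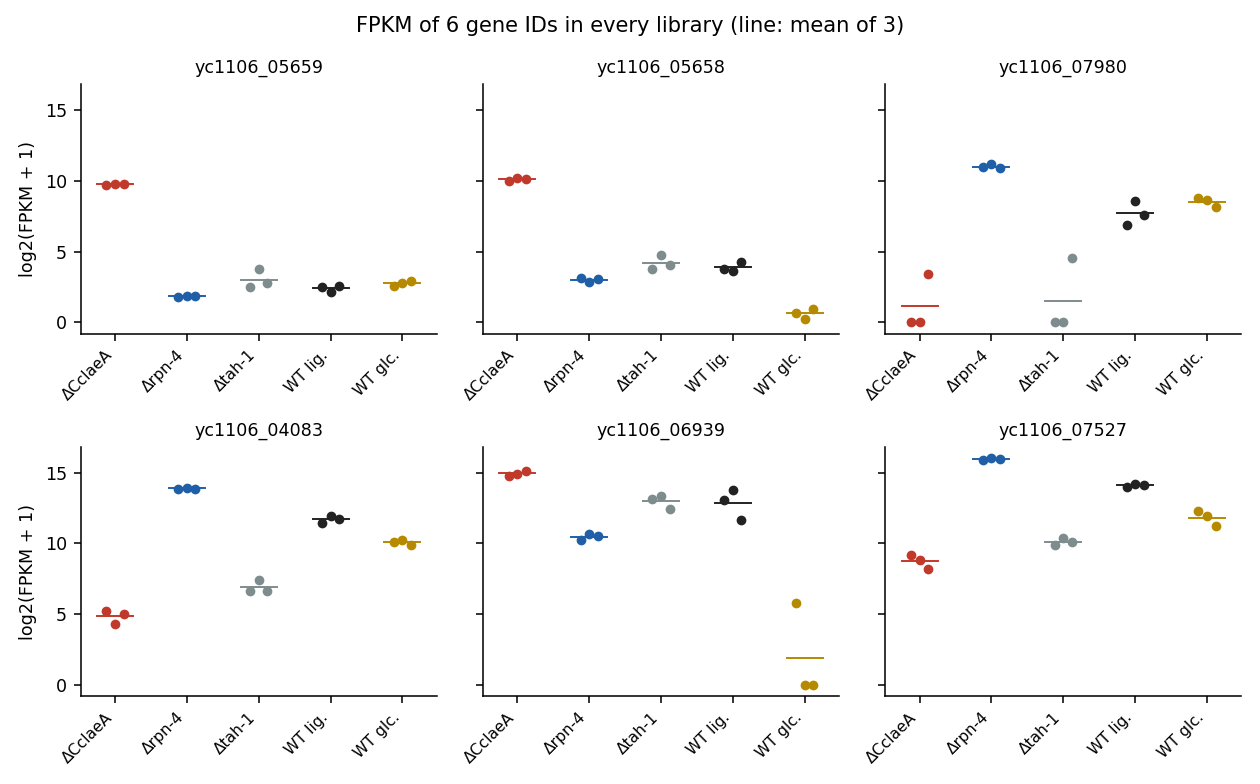
Values of 6 IDs as log2(FPKM + 1) (y axis) in every library of ΔCclaeA, Δrpn-4, Δtah-1, WT on lignosulfonate and WT on glucose (x axis), with 3 points and their mean per group. In the top left and top middle panels ΔCclaeA stands alone near 10, and in the panels of yc1106_04083 and yc1106_07527 the WT lignosulfonate points lie between the mutants.

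The single most abundant ID differed between the mutants. In ΔCclaeA it was yc1106_06939, the first in all 3 libraries, with 28684, 31507 and 36114 FPKM, against 1240, 1598 and 1454 FPKM in Δrpn-4. The groups did not overlap, and on the log2 scale the difference was 4.49 (SE 1.20, limma adjusted p = 0.00509) as deposited and 3.74 after scaling. That SE draws on the spread in all 15 libraries, and this ID was uneven in WT, with 8518, 14440 and 3284 FPKM on lignosulfonate and 54.3, 0 and 0 on glucose. With a pseudocount of 0.1 the limma adjusted p was 0.0535 as deposited and 0.102 after scaling, so the call was lost, whereas with only the 6 mutant libraries it was 1.93e-09 as deposited. In Δrpn-4 the ID with the highest mean was yc1106_07527, with 583, 463 and 285 FPKM in ΔCclaeA and 62672, 66495 and 64199 FPKM in Δrpn-4. Its log2 fold change was -7.24 (SE 0.28, limma adjusted p = 2.48e-11) as deposited and -7.99 after scaling, and it ranked between 159 and 440 in the ΔCclaeA libraries.

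The lists of the most abundant IDs overlapped little at the top. Of the 10 IDs with the highest mean in each mutant, 1 was shared, yc1106_09585, named for this overlap after its values were seen, with 24779 ± 1495 FPKM in ΔCclaeA and 12590 ± 379 in Δrpn-4 (SD, n = 3 each). Its log2 fold change of 0.98 as deposited and 0.22 after scaling was not called. The 10 leading IDs of ΔCclaeA held 11.6% ± 0.498 of the FPKM sum in ΔCclaeA and 3.18% ± 0.046 in Δrpn-4, with 6.23% ± 0.367 in WT on lignosulfonate. Of these 10, 4 were higher in ΔCclaeA under both scalings and none was lower under both. The 10 leading IDs of Δrpn-4 held 3.30% ± 0.092 in ΔCclaeA and 25.8% ± 0.565 in Δrpn-4, with 8.36% ± 0.570 in WT on lignosulfonate. Of these, 9 were lower in ΔCclaeA under both scalings. Choosing IDs by their level in 1 mutant favours these directions. Taken at a fixed level, 67 IDs had at least 1000 FPKM in every ΔCclaeA library and 102 in every Δrpn-4 library. The 35 in both lists were 52.2% of the ΔCclaeA list and 34.3% of the Δrpn-4 list. Of the 32 found in the ΔCclaeA list alone, 13 were among the 706 higher IDs, and of the 67 found in the Δrpn-4 list alone, 61 were among the 591 lower IDs. Of all tested IDs, 7.62% were in the higher set and 6.38% in the lower set. Being in 1 list alone already rests on the difference between the mutants, so these counts describe the lists and test nothing.

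Few IDs were on in 1 mutant and near off in the other. At least 10 FPKM in all 3 ΔCclaeA libraries and under 1 FPKM in all 3 Δrpn-4 libraries was found for 8 IDs, and the opposite for 8 IDs, and all 16 were called under both scalings. The 8 IDs on in ΔCclaeA had group means of 12.5 to 71.3 FPKM there and 0 to 0.600 FPKM in Δrpn-4. Their means were low in WT on lignosulfonate as well, at 0 to 7.15 FPKM, and none of them reached 10 FPKM in all 3 WT lignosulfonate libraries. The ID with the highest of these means was uneven there, with values from 0 to 21.4 FPKM, against 13.7 to 22.5 FPKM in ΔCclaeA. On glucose, 5 of these 8 were under 1 FPKM in all 3 WT libraries, and 1 had a mean of 3636 FPKM. The 8 IDs on in Δrpn-4 had means of 0.213 to 0.610 FPKM in ΔCclaeA and 12.7 to 231 FPKM in Δrpn-4. In WT on lignosulfonate they had 1.84 to 411 FPKM, with 3 of the 8 at 10 FPKM or more in every library, and 5 of the 8 were at that level in Δtah-1. After scaling, 5 IDs were on in ΔCclaeA alone and 11 in Δrpn-4 alone, so the even split of 8 and 8 held only as deposited. With a limit of 0.5 FPKM for near off, 5 were on in ΔCclaeA alone and 2 in Δrpn-4 alone.

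Some called IDs followed each other in the ID numbering. The sources used here do not say if ID numbers follow the genome, and no chance level was computed. Of the 706 higher IDs, 64 lay in 20 runs of at least 3 consecutive IDs that were all called higher under both scalings, and 504 had no neighbour in the same set. Of the 591 lower IDs, 56 lay in 17 such runs and 407 had no neighbour in the set. The longest run of higher IDs had 5 members, yc1106_01886 to yc1106_01890. Their means were 73.9, 323, 11352, 685 and 3982 FPKM in ΔCclaeA and 9.83, 38.7, 1769, 182 and 640 FPKM in Δrpn-4, with a median log2 fold change of 2.68 as deposited and 1.93 after scaling. WT on lignosulfonate lay between, at 26.9 to 4549 FPKM, and all 5 were low on glucose, at 0 to 3.94 FPKM, and in Δtah-1, at 0.323 to 31.7 FPKM.

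The other named runs had 4 members each. Among lower IDs 5 runs tied at this length, and the 3 with the largest absolute median log2 fold change are given. From yc1106_04344 to yc1106_04347 the means were 105, 575, 902 and 93.3 FPKM in ΔCclaeA and 8.997, 25.3, 67.6 and 19.9 FPKM in Δrpn-4, with 20.5 to 85.9 FPKM in WT on lignosulfonate. On glucose 3 of the 4 were at 7.11 to 12.8 FPKM in WT and yc1106_04345 was at 368 FPKM. Here ΔCclaeA stood above WT, with a median log2 fold change of 2.84 against WT as deposited and 2.94 after scaling, while Δrpn-4 had -0.34 and 0.50. The run from yc1106_09861 to yc1106_09864 had 8.53, 9.65, 43.2 and 44.2 FPKM in ΔCclaeA and 1.08, 1.297, 7.69 and 11.1 FPKM in Δrpn-4. WT had 4.73 to 26.6 FPKM on lignosulfonate and 8.27 to 58.7 FPKM on glucose. In WT, 3 of these 4 IDs were called lower on lignosulfonate than on glucose under both scalings. Among lower IDs, yc1106_03499 to yc1106_03502 had 5.88, 319, 46.7 and 1891 FPKM in ΔCclaeA and 795, 2521, 2645 and 5212 FPKM in Δrpn-4. In this run WT on lignosulfonate had 37.0 to 7614 FPKM and exceeded both mutants at the last ID. The run from yc1106_01034 to yc1106_01037 had 7.76, 287, 103 and 55.5 FPKM in ΔCclaeA and 66.7, 2475, 923 and 12437 FPKM in Δrpn-4. All 4 were also called lower in Δtah-1 than in WT and higher on lignosulfonate than on glucose in WT, under both scalings. The run from yc1106_09283 to yc1106_09286 had 44.4, 15.3, 8.43 and 44.97 FPKM in ΔCclaeA and 168, 153, 45.5 and 97.9 FPKM in Δrpn-4. At yc1106_09285 both WT on lignosulfonate, with 63.7 FPKM, and Δtah-1, with 167 FPKM, exceeded both mutants. The last ID of the run had a log2 fold change of -1.11 as deposited and -1.85 after scaling, and was not called when FPKM was rescaled to equal sums (-0.83).

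WT on lignosulfonate mostly lay between the mutants at the IDs that separated them. Of the 706 IDs higher in ΔCclaeA, the WT mean was between the 2 mutant means for 643 (91.1%) as deposited and 598 (84.7%) after scaling. Of the 591 lower IDs it was between for 406 (68.7%) as deposited and 500 (84.6%) after scaling. Over all tested IDs the WT mean was between for 42.7% as deposited and 44.98% after scaling. IDs with a large gap between the mutants leave more room for a value between them, so the excess over all tested IDs is a description. WT was above both mutants for 154 of the lower IDs (26.1%) as deposited and 51 (8.63%) after scaling. Over all tested IDs these shares were larger, at 51.5% as deposited and 28.4% after scaling.

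A larger share of the lower IDs than of all tested IDs was higher on lignosulfonate than on glucose in WT. This contrast compares WT libraries only. Its p-values draw on a spread pooled over all 15 libraries, so its calls are not independent of those between the mutants. In WT, 26% of all tested IDs were called higher and 14.6% lower on lignosulfonate than on glucose as deposited, and 22.7% and 18.1% after scaling. The 2 media differ both in lignosulfonate and in glucose, whose effects cannot be told apart. Of the 591 IDs lower in ΔCclaeA than in Δrpn-4, 289 (48.9%) were higher on lignosulfonate in WT, and 267 (45.2%) after scaling. At 109 IDs at least 8-fold lower under both scalings the number was 67 (61.5%), and 62 (56.9%) after scaling. Among the 25 IDs at least 8-fold higher in ΔCclaeA under both scalings, 14 (56%) were also higher on lignosulfonate as deposited and 11 (44%) after scaling, so at large folds the excess was not particular to the lower IDs. The share among the lower IDs exceeded that of all tested IDs in each of the 5 level classes, with 42.7% to 59.6% against 20.3% to 36.1% as deposited, and 37.9% to 57.4% against 17.6% to 31.2% after scaling. Of the 706 IDs higher in ΔCclaeA, 191 (27.1%) were higher on lignosulfonate as deposited and 166 (23.5%) after scaling, close to the share of all tested IDs. In the highest level class, however, 56.8% of 81 such IDs were higher on lignosulfonate as deposited, against 23.5% of all tested IDs there, and 53.1% against 21.2% after scaling. IDs lower on lignosulfonate were 10.9% of the higher set and 13.9% of the lower set as deposited, near or below the background.

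A larger share of the IDs that separate ΔCclaeA from Δrpn-4 than of all tested IDs was called in Δtah-1 against WT. This contrast compares neither ΔCclaeA nor Δrpn-4, but its p-values again draw on the spread pooled over all 15 libraries. As deposited, 7.62% of all tested IDs were called higher and 18.7% lower in Δtah-1 than in WT on lignosulfonate, and after scaling 12.5% and 8.8%. Of the 706 IDs higher in ΔCclaeA than in Δrpn-4, 307 (43.5%) were lower in Δtah-1 as deposited and 156 (22.1%) after scaling, while 5.67% and 7.93% were higher. Of the 591 IDs lower in ΔCclaeA, 182 (30.8%) were lower in Δtah-1 as deposited and 140 (23.7%) after scaling. In this set 121 (20.5%) were higher in Δtah-1 as deposited and 157 (26.6%) after scaling, so the set was above the background in both directions. At the 109 IDs at least 8-fold lower in ΔCclaeA the lower direction prevailed, with 66 (60.6%) lower in Δtah-1 as deposited and 57 (52.3%) after scaling, against 7 and 10 higher. The 25 IDs at least 8-fold higher in ΔCclaeA did not follow their larger set, with 4 higher and 4 lower in Δtah-1 as deposited, and 6 higher and 1 lower after scaling. One Δtah-1 library, replicate 2, had a median of 30.5 FPKM against 21.4 and 23.1 in the other 2. Without it 16.8% of the lower set were higher and 35.5% lower in Δtah-1 as deposited, against 6.38% and 24.1% of all tested IDs. The medium contrast and the Δtah-1 contrast share the WT lignosulfonate libraries, and no test of either set was made.

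**Figure D5:**
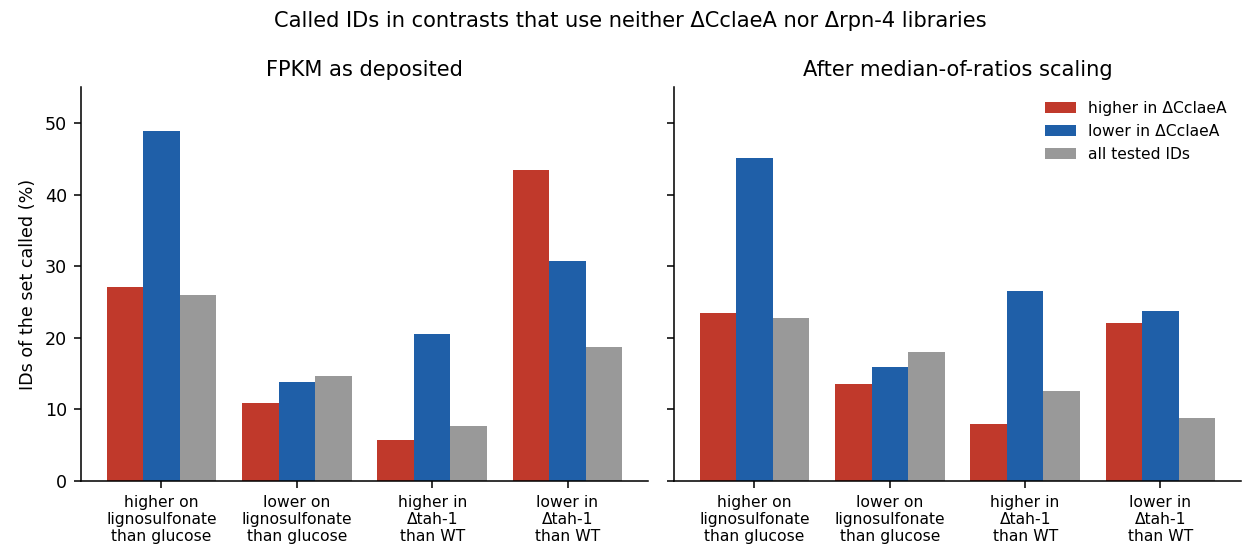
Share of IDs (percent, y axis) called in WT on lignosulfonate against glucose and in Δtah-1 against WT on lignosulfonate (x axis), for the 706 IDs higher in ΔCclaeA than in Δrpn-4, the 591 lower IDs and all 9265 tested IDs, on the left as deposited, on the right with median-of-ratios scaling. The tallest bar on both sides is that of the lower IDs among those higher on lignosulfonate, at 48.9% and 45.2%.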

How the data were processed

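RNA was taken from mycelia and sequenced on Illumina libraries, per the labels' protocols. Each deposited file gives 1 FPKM value per gene ID for 1 library, named as FPKM per the file headers of the 6 WT libraries. In the 9 mutant libraries the headers carry no unit, but the file names do, and the form of the values is the same. DESeq2, RSEM 1.3.3, HISAT2 2.1.0 and fastp 0.19.5 are listed, with no role, in the submitters' processing notes. The genome build was not given in the sources used here, nor was the annotation.

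IDs with at least 1 FPKM in at least 3 of 15 libraries were kept, with this filter on the deposited values for both scalings. Group means were fitted to log2(FPKM + 1) of all 15 libraries with limma 3.58.1 (trend and robust options) in R 4.3.3, and p-values were adjusted by Benjamini-Hochberg over all tested IDs. The fit was tested on simulated data. Other steps used Python 3.11.15, NumPy 2.4.6, pandas 2.3.3, SciPy 1.17.1 and matplotlib 3.10.9.

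Alternatives were leaving out each library, a replicate block, only the 6 mutant libraries, other scalings, a pseudocount of 0.1, no filter and calls without a minimum fold. Named IDs were the 2 largest rises and 2 largest falls called under both scalings, the most abundant ID of each mutant and the ends of the 3 longest runs per direction, with ties broken by the larger absolute median log2 fold change and the members between the ends given too. Comparison, lists and rules were chosen with earlier results of these data known.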

Additional observations from a re-analysis of the deposited data

How the results depend on the processing

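The counts depended on the scaling and on the minimum fold change, less on the pseudocount, and little on other choices. Higher and lower IDs in ΔCclaeA numbered 2915 and 591 as deposited, 706 and 1342 with median of ratios, 1045 and 1079 with upper-quartile scaling, 4279 and 462 with equal sums (TPM), and 1905 and 777 when libraries were scaled by their sums without the 100 most abundant IDs, an alternative added after the data were seen. The median log2 fold change was 0.67 as deposited, -0.0048, 0.15, 0.92 and 0.43 under these scalings in the same order, 0.73 with a pseudocount of 0.1 and 0.61 with no filter. With no minimum fold change 5492 IDs were higher and 1088 lower as deposited, and 2554 and 2821 after scaling. A pseudocount of 0.1 gave 3323 higher and 665 lower as deposited, and 838 and 1489 after scaling. Leaving out 1 mutant library gave 2889 to 2980 higher and 583 to 600 lower as deposited, and 679 to 740 and 1319 to 1364 after scaling. The difference in the share held by the most abundant IDs, ΔCclaeA minus Δrpn-4, was -14.2 percentage points for 10 IDs, -14.5 to -14.0 with a library left out, and -18.0 for 20 IDs.

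With the replicate number as a block 2918 IDs were higher and 592 lower as deposited, and 706 and 1341 after scaling. Same-numbered libraries did not deviate together (correlations of -0.015, 0.0027 and -0.061), so the numbers were not taken as a pairing.

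IDs on in ΔCclaeA alone and in Δrpn-4 alone numbered 8 and 8 as deposited, 5 and 11 after scaling, and 5 and 2 with a limit of 0.5 FPKM. After scaling, the higher set had 23.5% higher and 13.6% lower on lignosulfonate in WT, and 7.93% higher and 22.1% lower in Δtah-1. For the lower set the Δtah-1 shares were 26.6% and 23.7% after scaling, and 16.8% and 35.5% without Δtah-1 replicate 2. The WT mean lay between the mutants for 84.7% and 84.6% of the sets after scaling. Of 504 values of the 18 named IDs under these alternatives, 501 kept their call and direction, 3 lost the call and none reversed. The largest changes and the runs were taken from IDs called under both scalings, so these counts are partly set by the choice. Limits: absolute read depth is unknown, and genes have no names here.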

Other observations

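Under 1 FPKM in all 3 libraries of a mutant and at least 10 FPKM in the other 9 lignosulfonate libraries was found for 3 IDs in ΔCclaeA and for none in Δrpn-4. The 3 were yc1106_04001, yc1106_04040 and yc1106_09966, named after their values were seen. Their means were 0.213, 0.587 and 0.327 FPKM in ΔCclaeA and 231, 15.6 and 14.3 FPKM in Δrpn-4. Both Δtah-1, with 59.3, 162 and 96.4 FPKM, and WT on lignosulfonate, with 411, 12.3 and 70.4 FPKM, expressed all 3, and WT on glucose had 0.367, 0.180 and 0 FPKM. The listing does not tell which ID, if any, is the deleted gene.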
